A study of Mus musculus with 8 samples.

Results

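A group of 10 Notch pathway genes was followed in RNA-Seq of mouse tubuloids, kidney tubule cultures grown in Matrigel. They were the receptors *Notch1*, *Notch2* and *Notch3*, the ligands *Jag1*, *Jag2*, *Dll1* and *Dll4*, and the targets *Hes1*, *Hey1* and *Heyl*. They were picked by name, with earlier results of these data known, and make up 10 of the 24063 gene symbols measured. Shares and medians set beside those of all genes therefore only describe this list. All 10 members had enough reads to be tested. RNA came from 8 cultures, of which 4 had received glial-derived neurotrophic factor (GDNF) in a 24 h pulse (cultures 6, 12, 17 and 22) and 4 had not (control cultures 3, 7, 14 and 21). The question was whether a pulse of GDNF, the Ret ligand that drives outgrowth of the collecting duct system, changed gene expression by culture day 7. All cultures were tubule fragments of postnatal day 7-10 kidney of the genotype Pkd2fl/fl Pax8rtTA TetOCre mTmG and received the same growth factor medium. The genotype carries a floxed *Pkd2* and a Cre that the *Pax8* promoter makes inducible in renal epithelium. The labels of these cultures name no inducer of the Cre.

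Notch receptors are single-pass proteins that bind Jagged and Delta-like ligands on a neighbouring cell. Pulling by the ligand exposes the receptor to cleavage, first by an ADAM protease and then by gamma-secretase, and the freed intracellular domain joins the DNA-binding protein RBPJ in the nucleus and switches on the transcriptional repressors of the Hes and Hey families. In the developing kidney, Notch2 is required for the formation of proximal nephron segments, and in the collecting duct Notch signalling favours principal over intercalated cells. Notch1 and Dll4 are also known from endothelium and Notch3 from mural cells of blood vessels. A bulk RNA measurement cannot tell fewer cells of a type from less RNA per cell.

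Each member is represented in the tables by a single RefSeq transcript, on the GRCm38 build. *Notch1* lies on chr2:26457902-26503822, *Notch2* on chr3:98013538-98150367 and *Notch3* on chr17:32120820-32166896. *Jag1* lies on chr2:137081451-137116520, *Jag2* on chr12:112907803-112929812, *Dll1* on chr17:15367354-15376932 and *Dll4* on chr2:119325784-119335666. *Hes1* lies on chr16:30065357-30067796, *Hey1* on chr3:8663359-8667038 and *Heyl* on chr4:123233556-123249870. The 3 receptor transcripts are long, at 9489, 10506 and 7943 bp for *Notch1*, *Notch2* and *Notch3*. The *Hes1* transcript is the shortest at 1451 bp, and the other members run from 2205 bp (*Hey1*) to 5493 bp (*Jag1*). These lengths matter here, because the groups differed in how reads were spread over short and long transcripts.

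The 250 bases before the start site are shown for *Notch1*, *Notch2* and *Jag1*, 3 of the members whose levels were higher in every GDNF culture than in every control. They are RefSeq promoter windows of GRCm38.p6, read 5′ to 3′ in the direction of the gene. They lie at chr2:26503823-26504072 on the minus strand for *Notch1*, chr3:98013288-98013537 on the plus strand for *Notch2* and chr2:137116521-137116770 on the minus strand for *Jag1*. Capitals mark matches to the N-box CACNAG, the site that Hes repressors bind, on either strand.
*Notch1*: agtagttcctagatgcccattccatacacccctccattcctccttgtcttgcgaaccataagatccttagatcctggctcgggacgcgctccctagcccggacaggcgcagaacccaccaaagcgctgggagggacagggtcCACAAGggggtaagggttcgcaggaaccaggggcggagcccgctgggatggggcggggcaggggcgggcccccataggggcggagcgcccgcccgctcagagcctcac
*Notch2*: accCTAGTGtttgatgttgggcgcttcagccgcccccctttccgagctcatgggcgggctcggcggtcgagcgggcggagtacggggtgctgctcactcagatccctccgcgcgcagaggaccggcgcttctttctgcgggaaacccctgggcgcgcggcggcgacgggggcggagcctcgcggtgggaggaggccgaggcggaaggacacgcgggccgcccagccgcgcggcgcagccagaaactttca
*Jag1*: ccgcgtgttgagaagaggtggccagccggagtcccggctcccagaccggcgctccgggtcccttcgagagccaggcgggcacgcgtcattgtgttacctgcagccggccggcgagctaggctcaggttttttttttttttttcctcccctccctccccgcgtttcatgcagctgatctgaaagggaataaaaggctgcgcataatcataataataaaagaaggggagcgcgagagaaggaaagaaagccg
The *Notch1* match began at position -108 from the start site and the *Notch2* match, on the opposite strand, at position -247, while the *Jag1* window held none. The N-box occurred in 36.7% of the 32851 promoter windows of this length, so a match is common. The RBPJ motif GTGGGAA occurred in 5.42% of windows and the E-box CACGTG, which Hey repressors bind, in 6.02%, and neither occurred in the 3 windows shown.

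Library totals ranged from 72991721 to 97490625 transcript counts, so counting error was small for every member beside the spread between cultures. The share of counts on transcripts up to 2000 bp was 43.1-54.9% in controls (47.7 ± 5.08%, SD, n = 4) and 36.9-42.8% in GDNF cultures (39.1 ± 2.58%, n = 4), without overlap (two-sided exact permutation test, p = 0.0286, the smallest that 4 against 4 allows). Control culture 3 had the highest share and stood apart in normalization, with a trimmed mean of M values (TMM) factor of 0.790 against 0.963-0.982 in the other controls and 1.07-1.11 in GDNF cultures. Cultures 3, 7, 6 and 12 had *Xist* RNA and cultures 14, 21, 17 and 22 Y-linked RNA with almost no *Xist*, 2 of each kind in each group, and cultures 3 and 6 held some Y-linked RNA as well (at most 6.46 TPM, the read count per transcript length scaled to the same total in every culture). Epithelial markers were present in every culture, with a summed level of 479-3717 TPM in controls and 1089-1571 TPM in GDNF cultures over 7 genes. Nothing in the labels says whether the cultures came from separate animals, so p-values measure the spread between these cultures.

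Levels of different genes were set side by side in TPM, which is per length. In the control cultures the order was *Hes1* (95.4 ± 14.1 TPM, SD, n = 4), *Jag1* (20.7 ± 7.91), *Hey1* (10.4 ± 2.45), *Dll4* (7.61 ± 2.68), *Dll1* (6.07 ± 2.13), *Heyl* (3.97 ± 1.13), *Notch2* (3.34 ± 1.16), *Notch1* (3.10 ± 0.871), *Notch3* (1.32 ± 0.518) and *Jag2* (0.432 ± 0.102). Ranges over the 4 controls did not overlap for only 2 pairs of neighbours in this order, *Hes1* above *Jag1* and *Notch3* above *Jag2*, and without control culture 3 or without control culture 7 for 4 pairs. The middle of the list, from *Jag1* to *Notch3*, was a chain of neighbours whose ranges overlapped. Among the 19660 detected genes, *Hes1* stood at percentile 94.2 of control levels, *Jag1* at 77.6, *Notch2* and *Notch1* at 45.7 and 44.6, and *Jag2* at 25.3. In the GDNF cultures the order was the same except that *Dll1* stood above *Hey1* and *Dll4*, with 37.5 TPM in GDNF culture 6 and 9.21-18.4 TPM in the other 3.

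The receptors were at low to middling levels and were higher in the GDNF group in TPM. *Notch1* stood at 1.86, 3.90, 3.26 and 3.37 TPM in control cultures 3, 7, 14 and 21 and at 5.77, 6.54, 4.91 and 5.58 TPM in GDNF cultures 6, 12, 17 and 22. Every GDNF culture was above every control, and control culture 3 was the lowest of all. The means were 3.10 ± 0.871 and 5.70 ± 0.669 TPM (n = 4 each, exact permutation p = 0.0286, adjusted over 13698 genes 0.119). *Notch2*, the receptor needed for proximal nephron segments, stood at 1.62, 3.83, 4.02 and 3.91 TPM in controls and at 5.24, 6.91, 8.75 and 9.31 TPM in GDNF cultures, in the same culture order. Again the groups did not overlap, and 3 of the controls lay within a narrow band with culture 3 far below them. Its mean went from 3.34 ± 1.16 to 7.55 ± 1.85 TPM, the largest ratio of TPM among the receptors at 2.26 (exact permutation p = 0.0286). *Notch3* stood at 0.901, 2.08, 1.17 and 1.15 TPM in controls and at 1.99, 3.68, 1.77 and 2.37 TPM in GDNF cultures. Control culture 7 reached into the GDNF range, and the difference did not pass the exact permutation test (p = 0.0857, n = 4 each).

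**Figure D1:**
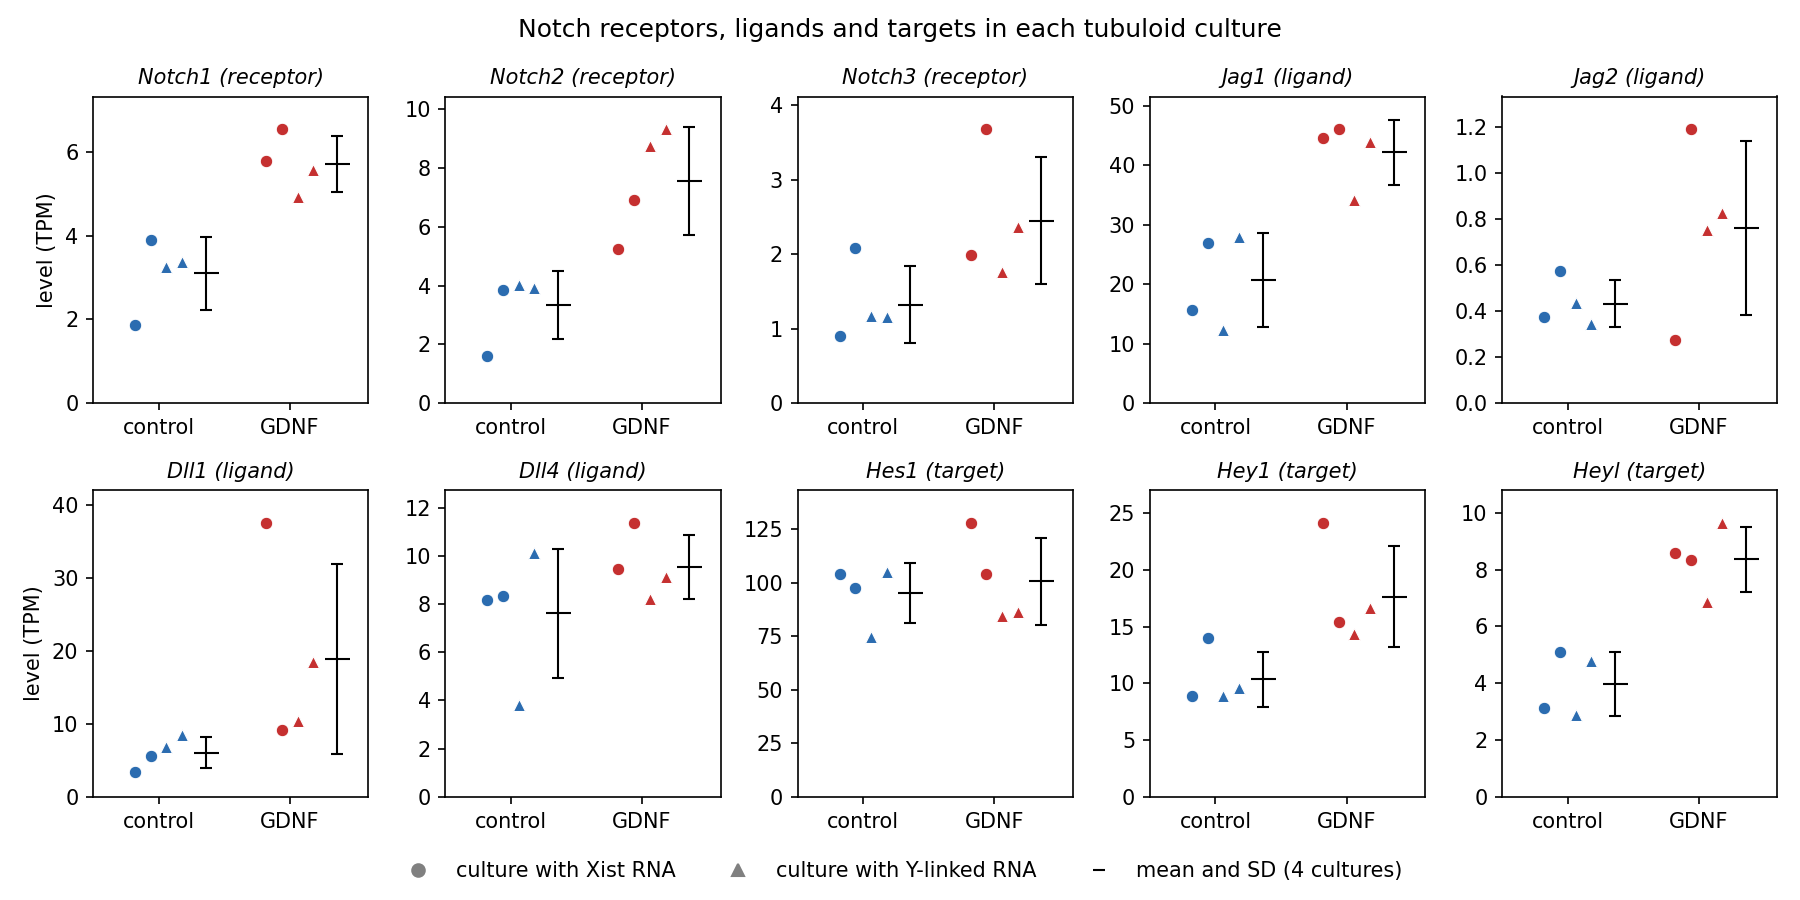
Level of each member in TPM (linear axes from 0, scaled per gene) in the 4 control and 4 GDNF cultures, with circles for cultures with *Xist* RNA, triangles for cultures with Y-linked RNA, and bars for the mean and SD of each group. The groups are apart for *Notch1*, *Notch2*, *Jag1*, *Dll1*, *Hey1* and *Heyl* and overlap for *Notch3*, *Jag2*, *Dll4* and *Hes1*.

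*Jag1* was the most abundant ligand in every culture. It stood at 15.7, 26.9, 12.2 and 27.9 TPM in controls and at 44.6, 46.1, 34.1 and 44.0 TPM in GDNF cultures. All GDNF cultures lay above all controls, and the controls fell into a lower pair (3 and 14) and a higher pair (7 and 21). The means were 20.7 ± 7.91 and 42.2 ± 5.46 TPM (exact permutation p = 0.0286, n = 4 each). *Dll1*, a Delta-like ligand, stood at 3.41, 5.58, 6.88 and 8.43 TPM in controls and at 37.5, 9.21, 10.4 and 18.4 TPM in GDNF cultures. The groups did not overlap, but the lowest GDNF culture was close to the highest control, and culture 6 had the highest level by a wide margin. The spread of the GDNF group was accordingly large, 18.9 ± 13.1 TPM against 6.07 ± 2.13 TPM in controls (exact permutation p = 0.0286). *Dll4*, the Delta-like ligand known from endothelium, stood at 8.15, 8.34, 3.81 and 10.1 TPM in controls and at 9.46, 11.4, 8.20 and 9.12 TPM in GDNF cultures. The groups overlapped, and only control culture 14 was well below the rest (exact permutation p = 0.257). *Jag2* was the lowest member in every culture, at 0.374, 0.574, 0.436 and 0.345 TPM in controls and 0.273, 1.19, 0.754 and 0.827 TPM in GDNF cultures. GDNF culture 6 had the lowest *Jag2* of all 8 cultures and the other 3 GDNF cultures the highest (exact permutation p = 0.143).

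The targets differed from each other. *Hes1*, the most abundant member, stood at 104.2, 97.7, 74.9 and 104.9 TPM in controls and at 128.0, 104.1, 84.4 and 86.2 TPM in GDNF cultures. The groups overlapped almost completely (exact permutation p = 0.743). *Hey1* stood at 8.94, 13.99, 8.87 and 9.64 TPM in controls and at 24.1, 15.4, 14.4 and 16.7 TPM in GDNF cultures. The groups did not overlap, though control culture 7 came close to the lowest GDNF culture (means 10.4 ± 2.45 and 17.7 ± 4.42 TPM, exact permutation p = 0.0286). *Heyl*, a further member of the Hey family, stood at 3.11, 5.09, 2.89 and 4.79 TPM in controls and at 8.59, 8.35, 6.84 and 9.63 TPM in GDNF cultures. Here the highest control (5.09 TPM) lay below the lowest GDNF culture (6.84 TPM), with means of 3.97 ± 1.13 and 8.35 ± 1.15 TPM (exact permutation p = 0.0286).

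In TPM, 6 of the 10 members were thus higher in every GDNF culture than in every control, beside 23.4% of the 13698 genes that averaged 1 TPM or more. This background is high because TPM as a whole leaned to the GDNF group. The mean TPM was higher in GDNF cultures for 78.6% of these genes, with a median log2 change of 0.40. No member passed after adjustment over all genes. On CPM, counts scaled to library size and TMM factor but not to length, most of that lean was absent, and the groups of *Notch1*, *Notch2*, *Jag1* and *Heyl* remained apart, 4 of 10 beside 6.99% of 16557 genes. In CPM, *Dll1* and *Hey1* overlapped. Control culture 21 (16.7 CPM) was above GDNF culture 12 (15.8 CPM) for *Dll1*, and control culture 7 (19.2 CPM) was above GDNF cultures 12, 17 and 22 (17.01, 15.9 and 17.4 CPM) for *Hey1*.

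With edgeR's quasi-likelihood test on counts, none of the 10 members was called at a Benjamini-Hochberg adjusted p of 0.05, and neither was any other gene (0.0% of 16557). At an unadjusted p of 0.05, 5 of the 10 members were higher in GDNF cultures and none was lower, beside 9.25% of all genes higher and 12.9% lower. They were, from the smallest p on, *Notch2* with a log2 fold change of 0.82 (SE 0.22), *Heyl* with 0.69 (SE 0.20), *Dll1* with 1.31 (SE 0.43), *Notch1* with 0.52 (SE 0.17) and *Jag1* with 0.65 (SE 0.24). The adjusted edgeR p was 0.167 for all of these except *Jag1* (0.178). The values of the remaining members were 0.51 (SE 0.30) for *Notch3*, 0.39 (SE 0.43) for *Jag2*, 0.38 (SE 0.24) for *Hey1*, -0.092 (SE 0.29) for *Dll4* and -0.34 (SE 0.23) for *Hes1*. Leaving out single cultures left 4 to 6 members at an unadjusted p of 0.05 and higher, beside 5.19% to 10.2% of all genes in the same fits. *Notch2*, *Dll1* and *Heyl* were among these members each time. Without GDNF culture 6 the log2 fold change was 0.67 for *Dll1* and 0.14 for *Hey1*. Only without that culture was a member, *Hes1*, lower at an unadjusted p of 0.05, with a log2 fold change of -0.52.

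DESeq2, which the study's processing notes name, gave another count. It called *Notch2* (DESeq2 adjusted p = 0.0316) and *Dll1* (DESeq2 adjusted p = 0.0327) as higher, 2 of 10 members, beside 2.06% of 8610 genes called higher and 12.4% called lower. It gave no adjusted p to *Notch3*, *Jag2* and *Heyl*, which its filter on low counts removed. Without that filter it called no member, beside 0.203% of all genes called higher, with adjusted p-values of 0.0617, 0.0645 and 0.0675 for *Notch2*, *Dll1* and *Heyl*. limma-voom called none of the members and no gene at all, with 4 members (*Notch1*, *Notch2*, *Jag1* and *Heyl*) at an unadjusted p of 0.05, beside 9.96% of all genes.

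The median log2 fold change of the members was 0.51, beside 0.033 for all genes tested, and 8 of 10 members were above 0, beside 52.5% of all genes. With scaling to library size alone the medians were 0.72 and 0.25, and *Dll4* turned from -0.092 to 0.15.

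Transcript length ran with the change across all genes. The median log2 fold change was -0.27 for 5699 genes with transcripts under 2000 bp, 0.0098 for 6465 genes from 2000 to 4000 bp, 0.24 for 3383 genes from 4000 to 7000 bp and 0.41 for 1010 genes of 7000 bp or more. The 3 receptors belong to the longest class, in which 91.2% of genes were above 0 and 29.1% were higher at an unadjusted p of 0.05. *Notch1* (0.52) and *Notch3* (0.51) lay near the median of that class and *Notch2* (0.82) above it. *Hes1* (-0.34) lay near the median of the shortest class. *Jag1* and *Heyl* lay above the median of their length class and *Dll1* and *Hey1* above that of theirs. *Jag2* (0.39, SE 0.43) and *Dll4* (-0.092, SE 0.29) lay within their standard error of the median of their class.

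**Figure D2:**
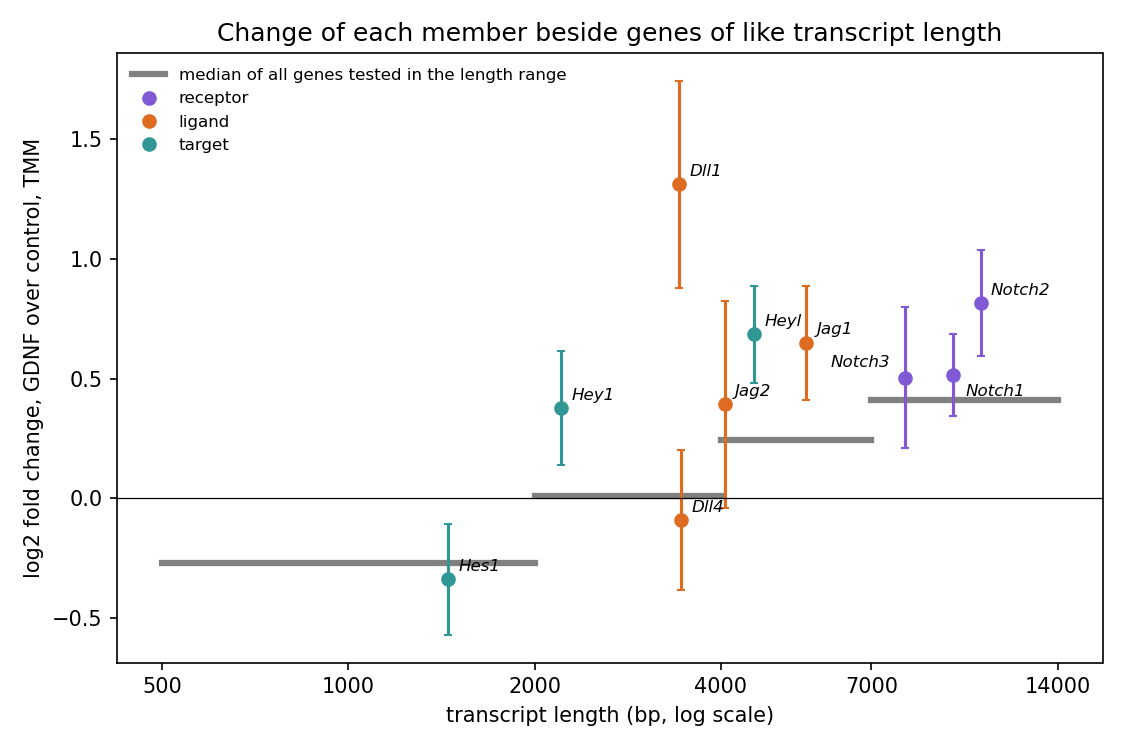
Log2 fold change of each member (GDNF over control, TMM scaling, bars are standard errors) against the length of its transcript in bp on a log axis, with gray lines for the median of all genes tested in each of 4 length ranges. *Hes1*, *Notch1* and *Notch3* lie on or near the gray lines, while *Dll1* at 1.31 lies farthest above them.

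A fit in which each culture's trend over transcript length and GC content was removed changed the receptors most. In this fit, chosen after the data were seen, the log2 fold change of *Notch1* was 0.00018 (edgeR adjusted p = 0.99988), that of *Notch3* -0.0073 and that of *Notch2* 0.29 (SE 0.14, edgeR adjusted p = 0.344). *Jag1* and *Heyl* kept 0.39 (SE 0.25) and 0.42 (SE 0.20). *Dll1* and *Hey1* hardly moved, at 1.18 (SE 0.45) and 0.40 (SE 0.22), against 1.31 and 0.38 without the correction. *Jag2*, *Dll4* and *Hes1* stood at 0.098, -0.24 and -0.23. *Dll1* alone remained at an unadjusted edgeR p of 0.05, 1 of 10 beside 5.58% of all genes, and the members' median was 0.19 beside -0.038 for all genes. The receptors' higher levels and the lower share of short transcripts came with the same cultures, and the part of one in the other cannot be told apart in this design.

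**Figure D3:**
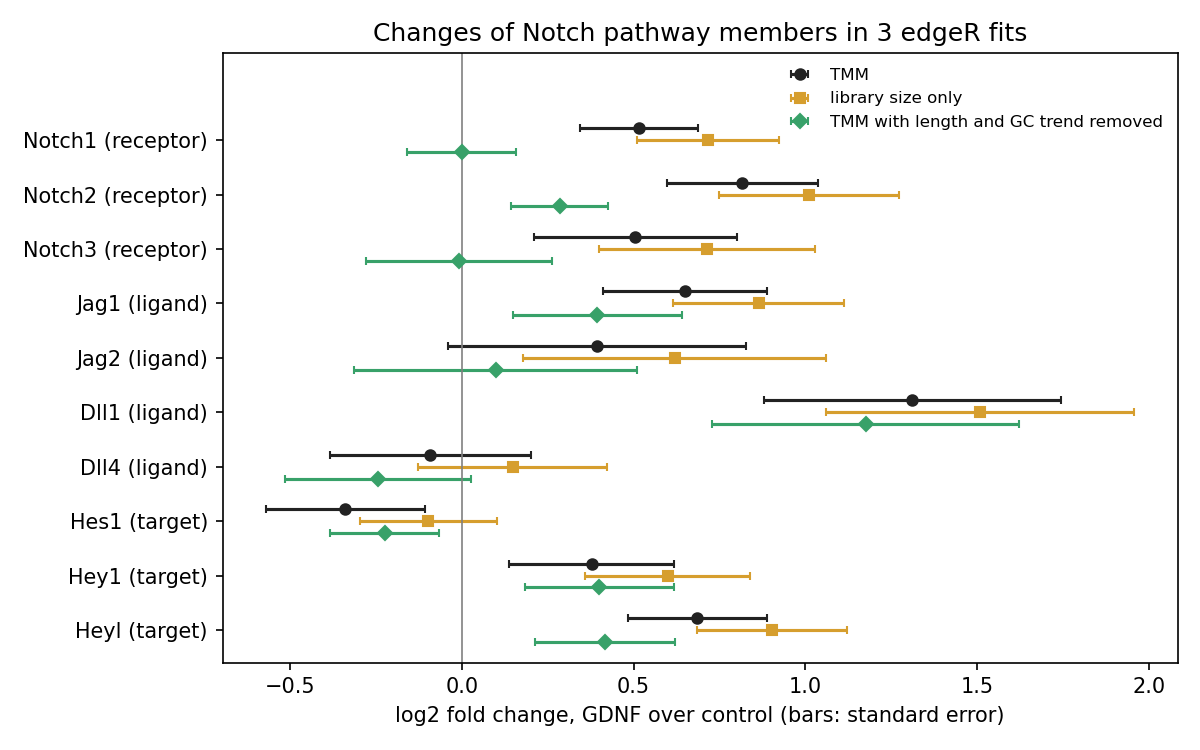
Log2 fold change (GDNF over control) of each member in 3 edgeR fits, with bars for the standard error: TMM scaling (circles), library size only (squares) and TMM with the length and GC trend of each culture removed (diamonds). The diamonds of *Notch1* and *Notch3* lie at 0, whereas those of *Dll1* and *Hey1* lie beside the circles.

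The same relation held from culture to culture for some members. Over the 8 cultures, log2(CPM + 1) of *Notch2* was lower where the share of counts on short transcripts was higher (Pearson r = -0.959, exact permutation p = 0.00067, adjusted over 10 members' relations 0.0067, Spearman rho = -0.929, exact permutation p = 0.00223, adjusted 0.0223). Without the 2 cultures farthest from the median share it was -0.877, and with group means removed -0.894 (permutation p = 0.00747). After removal of group means the permutation ran over all 8 cultures and not within groups. Such p-values are not exact and can be too small. *Hes1* went the other way (r = 0.821, exact permutation p = 0.0116, adjusted 0.0582, rho = 0.762, exact permutation p = 0.0368, adjusted 0.115), but r was 0.426 without the 2 farthest cultures and 0.826 with group means removed (permutation p = 0.0142, not exact). For *Notch1* r was -0.738 (exact permutation p = 0.0340, adjusted 0.113, rho = -0.714, exact permutation p = 0.0576, adjusted 0.115) and was -0.491 without the 2 farthest cultures and -0.303 with group means removed (permutation p = 0.471, not exact). For *Dll1* r was -0.467 (exact permutation p = 0.244, adjusted 0.407) and rho -0.810 (exact permutation p = 0.0218, adjusted 0.109). With group means removed the r of *Dll1* was 0.080 (permutation p = 0.836, not exact). *Heyl* had r = -0.581 (exact permutation p = 0.131) and rho = -0.714 (exact permutation p = 0.0576, adjusted 0.115). For *Hey1* (r = -0.042, rho = -0.143) and *Dll4* (r = 0.269, rho = 0.452) the relation did not pass (exact permutation p of 0.495 or more for r and 0.267 or more for rho).

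Within the 2 kinds of cultures, each with 2 cultures per group, the differences pointed the same way for 9 of the 10 members in TPM. The TPM mean was higher in GDNF cultures for 78.6% of all genes, and the share of all genes that pointed the same way in both kinds was not counted. In CPM the difference of *Dll4* was -2.50 with *Xist* RNA and 0.31 with Y-linked RNA. *Hes1* differed by -21.5 and -17.6 CPM in these kinds. The mean of *Notch2* went from 2.72 to 6.08 TPM where *Xist* RNA was found and from 3.96 to 9.03 TPM where Y-linked RNA was found. *Jag1* went from 21.3 to 45.3 TPM and from 20.1 to 39.0 TPM in these kinds, and *Heyl* from 4.10 to 8.47 TPM and from 3.84 to 8.24 TPM. The difference of *Dll1* was 18.9 TPM in cultures with *Xist* RNA, which include GDNF culture 6, and 6.79 TPM in the others. In TPM *Hes1* differed by 15.1 in cultures with *Xist* RNA and by -4.55 in those with Y-linked RNA. No interaction of kind and GDNF passed for any member (edgeR, unadjusted p from 0.131 for *Dll1* to 0.948 for *Notch3*, adjusted p = 0.99998 for each).

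Within cultures, 12 ratios, shares and sums of member levels were compared, all chosen after the values were seen, and none passed after adjustment over the 12. The receptors summed to 4.38, 9.82, 8.45 and 8.43 TPM in controls and to 13.0, 17.1, 15.4 and 17.3 TPM in GDNF cultures, without overlap (exact permutation p = 0.0286, adjusted 0.114). The ligands summed to 27.6, 41.4, 23.4 and 46.8 TPM in controls and to 91.8, 67.8, 53.5 and 72.4 TPM in GDNF cultures, likewise without overlap. *Jag1* made up 58.5 ± 5.28% of the ligand sum in controls and 60.2 ± 8.34% in GDNF cultures (n = 4 each, exact permutation p = 0.714). *Dll1* made up 18.3 ± 7.81% and 24.9 ± 11.7% (exact permutation p = 0.4). The *Dll4* share was 16.3-29.5% in controls and 10.3-16.7% in GDNF cultures, with control culture 14 below GDNF culture 12 (means 21.9 ± 5.54% and 13.7 ± 2.87%, exact permutation p = 0.0571, adjusted 0.171). *Hes1* made up 83.7-89.6% of the summed TPM of the 3 targets in controls and 76.6-81.4% in GDNF cultures (means 86.9 ± 2.53% and 79.4 ± 2.01%, exact permutation p = 0.0286, adjusted 0.114). The ratio of *Heyl* to *Hey1* was 0.384 ± 0.0772 and 0.488 ± 0.0974 (exact permutation p = 0.171). The ratio of *Notch2* to *Notch1* was 1.06 ± 0.166 in controls and 1.35 ± 0.436 in GDNF cultures (exact permutation p = 0.314). It was 0.868-1.06 in the cultures with *Xist* RNA, against 1.16-1.78 where Y-linked RNA was found, a split seen in the data and given without a test.

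Across cultures, *Jag1* and *Heyl* went together most closely of the 45 pairs of members. Over 8 cultures, their log2(CPM + 1) had r = 0.964 (exact permutation p = 0.00032, adjusted over 45 pairs 0.0145) and rho = 0.976 (exact permutation p = 0.00040, adjusted 0.0179). Without the 2 cultures farthest from the median of *Jag1*, r was 0.918, and with the group means removed 0.947 (permutation p = 0.00198, adjusted 0.0298). The last p-values are not exact, because the permutation did not stay within groups. The order was nearly the same for both genes, from control culture 14 (41.8 CPM of *Jag1* and 8.15 CPM of *Heyl*) to GDNF culture 6 (131.0 and 20.8 CPM). It was the only pair to pass in the main analysis, and no pair passed without control culture 3, GDNF culture 6 or GDNF culture 17, while 3 passed without control culture 14. *Notch2* and *Hes1* went opposite ways in CPM (r = -0.877, exact permutation p = 0.00508, adjusted 0.114, rho = -0.786, exact permutation p = 0.0279, adjusted 0.206). Once group means were removed r was -0.958 (permutation p = 7.4e-05, adjusted 0.00335). These p-values are likewise not exact and can be too small. In log2(TPM + 1), however, r of this pair was -0.251 (exact permutation p adjusted over 45 pairs = 0.606), and these are the longest and the shortest transcript of the 10 members.

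**Figure D4:**
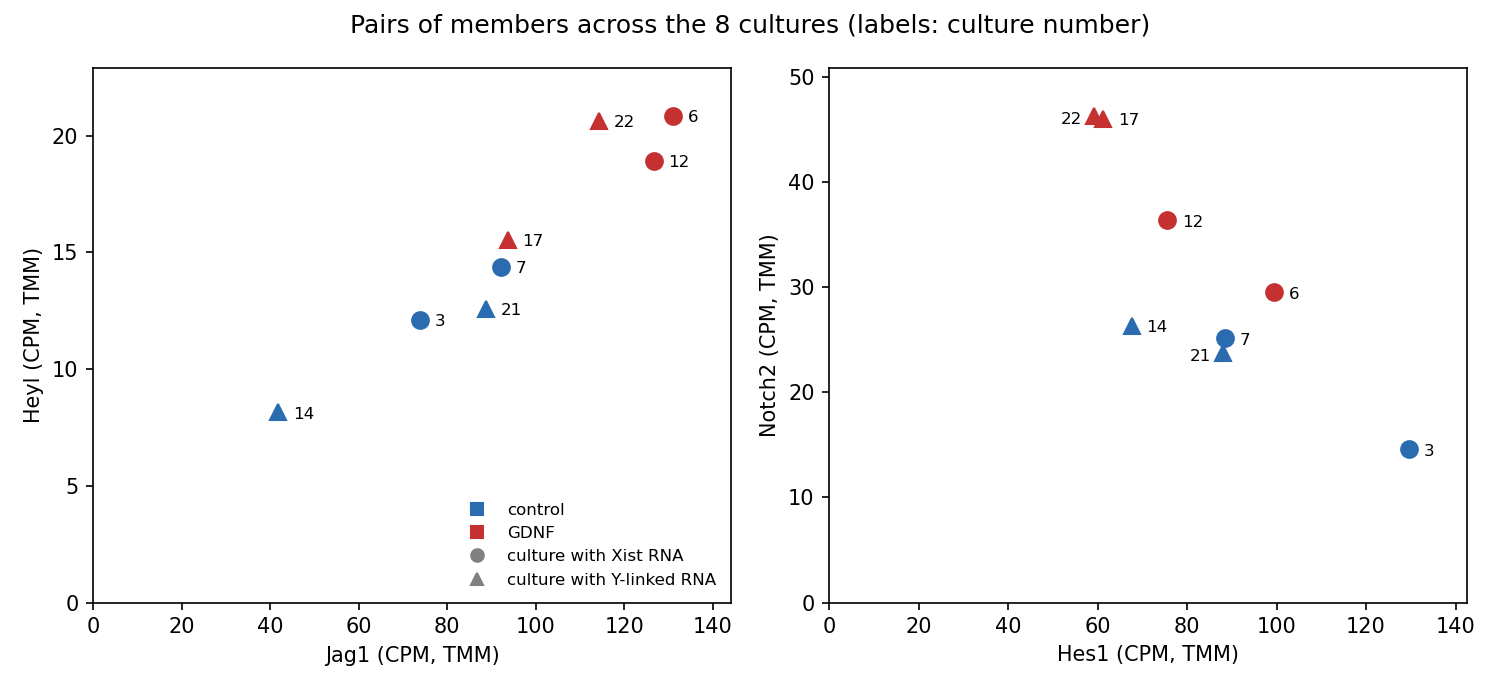
CPM (TMM scaling, axes from 0) of *Heyl* against *Jag1* (left) and of *Notch2* against *Hes1* (right), with 1 point per culture labelled by its number, blue for control and red for GDNF, circles for *Xist* RNA and triangles for Y-linked RNA. The left points run along a line from control culture 14 to GDNF culture 6, and the right points descend from GDNF cultures 17 and 22 to control culture 3.

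For each member, the 2 other genes with the highest r of log2(CPM + 1) over the 8 cultures were listed among 11452 genes that averaged 5 CPM or more. With so many genes and 8 cultures, high values arise for every gene, and they are given as a description. The nearest genes were *9430008C03Rik* (0.979) and *Sppl2b* (0.974) for *Notch1*, *Usp40* (0.995) and *Usp11* (0.991) for *Notch2*, and *Rgs3* (0.971) and *Fgf1* (0.959) for *Notch3*. For the ligands they were *D2hgdh* (0.990) and *Ikbkb* (0.983) for *Jag1*, *Arid5a* (0.963) and *Slc1a4* (0.938) for *Jag2*, *Mir3082* (0.976) and *Clec18a* (0.971) for *Dll1*, and *Spns2* (0.980) and *Camk2b* (0.978) for *Dll4*. For the targets they were *Cmtm8* (0.994) and *0610011F06Rik* (0.993) for *Hes1*, *Snora65* (0.974) and *Degs2* (0.953) for *Hey1*, and *Kif5c* (0.975) and *Synrg* (0.974) for *Heyl*.

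A list of 54 other genes of the pathway was read from the same edgeR fit. Of the 51 tested, none was called at an adjusted p of 0.05. At an unadjusted p of 0.05, 13 were higher in GDNF cultures and 2 were lower, beside 9.25% and 12.9% of all genes. A log2 fold change above 0 was found for 37, beside 52.5% of all genes, and the median was 0.19 beside 0.033. With the length and GC trend removed the median was 0.015, with 5 higher and 2 lower, beside 5.58% and 10.8% of all genes. DESeq2 called 1 gene, *Spen*, as higher, and called none without its filter on low counts (DESeq2 adjusted p = 0.0605 for *Spen*).

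Of 15 genes that modify or cleave the receptors, 2 were higher and 1 was lower at an unadjusted p of 0.05. The 2 were fringe glycosyltransferases, which set the ligand preference of Notch. *Lfng* went from 4.42 ± 0.995 to 8.09 ± 3.41 CPM, a log2 fold change of 0.87 (SE 0.31, edgeR adjusted p = 0.170), without overlap between groups. *Rfng* went from 24.9 ± 3.42 to 33.3 ± 3.91 CPM (log2 fold change 0.42, SE 0.15), also without overlap. With the length and GC trend removed *Lfng* kept a log2 fold change of 0.80, but it was 0.53 without GDNF culture 6 and no longer at an unadjusted p of 0.05. Of 7 genes for the endocytosis of ligands, 3 were higher and all 7 had a log2 fold change above 0. With the length and GC trend removed, 1 of the 7, *Mib1*, was higher (log2 fold change 0.59, against 0.28 for *Epn1*). The E3 ubiquitin ligase gene *Mib1* had 11.1 ± 3.23 and 17.7 ± 3.98 CPM with overlap (0.67, SE 0.26), and the epsin gene *Epn1* 16.0-19.8 and 21.1-24.8 CPM without overlap (0.37, SE 0.14).

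Of 8 genes of the nuclear complex and its corepressors, 3 were higher, and none was with the length and GC trend removed. The corepressor gene *Spen* went from 22.6 ± 5.08 to 36.7 ± 3.37 CPM (log2 fold change 0.70, SE 0.18, edgeR adjusted p = 0.167, DESeq2 adjusted p = 0.0312), and its value with the trend removed was 0.17. Of 9 inhibitors and modulators, 5 were higher, and 2 were with the length and GC trend removed. *Numb*, an adaptor that antagonizes Notch, stood at 119.7-161.9 CPM in controls and 178.1-188.8 CPM in GDNF cultures (0.35, SE 0.14). *Fbxw7*, the F-box protein that marks the Notch intracellular domain for degradation, stood at 22.8-32.1 and 34.8-37.8 CPM (0.35, SE 0.14). With the trend removed *Numb* had 0.25 and *Fbxw7* 0.26, and *Fbxw7* was no longer at an unadjusted edgeR p of 0.05.

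The other receptors and ligands and the other targets showed less. Of the 4 other receptors and ligands tested, none passed, with 0.45 (SE 0.25) for *Notch4* and 0.18 (SE 0.45) for *Dlk1*. Of the 8 other targets tested, none was higher and *Ccnd1*, the cyclin D1 gene, was lower. It varied widely among controls (56.3-341.8 CPM) and less among GDNF cultures (59.0-97.3 CPM), with a log2 fold change of -1.31 (SE 0.56, edgeR adjusted p = 0.214). *Hes5* was near 1 CPM, with a highest value of 4.34 CPM in GDNF cultures, and a log2 fold change of 1.04 (SE 0.75) that was -0.42 without GDNF culture 6.

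**Figure D5:**
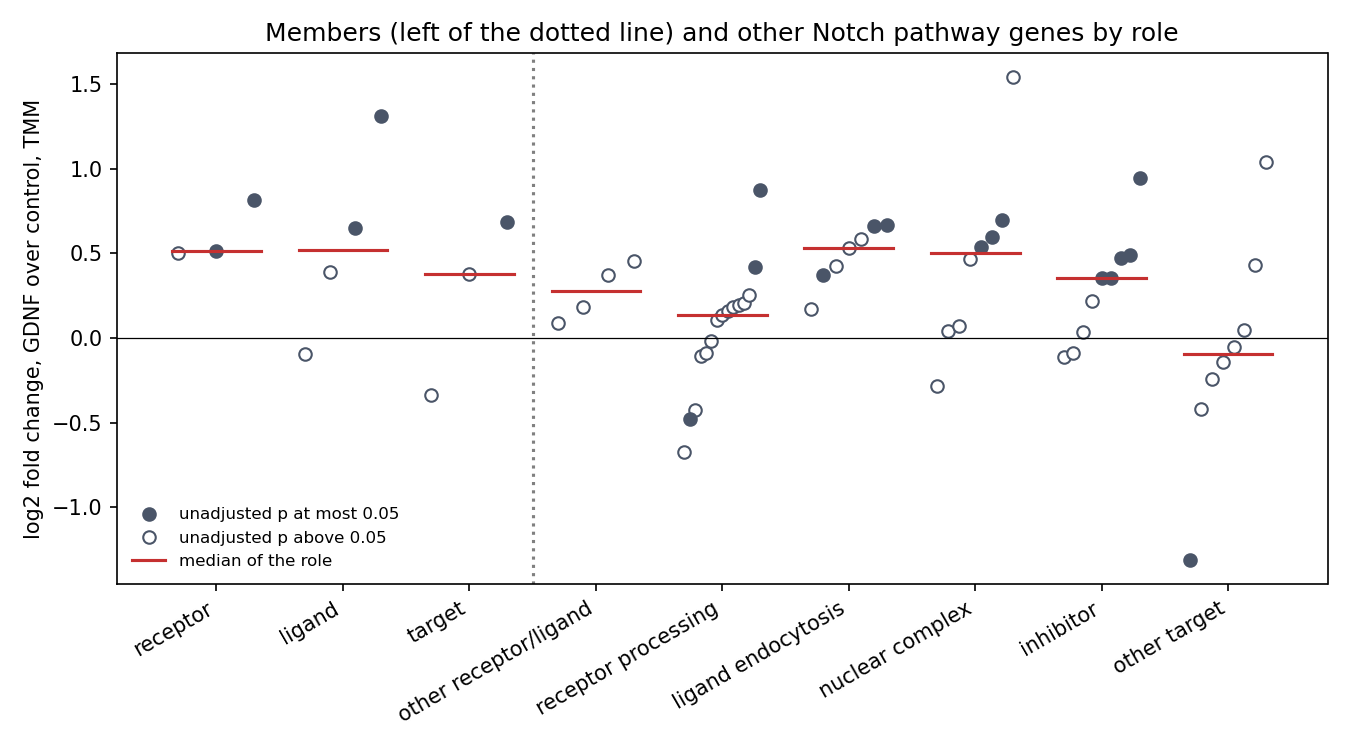
Log2 fold change (GDNF over control, TMM scaling) of the 10 members, left of the dotted line, and of 51 other pathway genes by role, with filled points at an unadjusted edgeR p of 0.05 or less and red lines for the median of each role. Filled points lie above 0 except for 1 among receptor processing genes and 1 among the other targets, and the other receptors and ligands have none.

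Several members are known from vessels and stroma, so marker lists of the cell types that tubule fragments of whole kidney could hold were read beside them. The 10 endothelial markers summed to 47.6-145.5 TPM in controls and 67.2-160.7 TPM in GDNF cultures, with 1 of 9 tested higher and 1 lower at an unadjusted edgeR p of 0.05. *Plvap* (24.4-121.4 TPM), *Emcn* (9.04-30.2 TPM) and *Egfl7* (4.55-18.4 TPM) held most of that sum, while *Cdh5* was at most 0.499 TPM and *Kdr* at most 0.525 TPM in any culture. The 8 mural markers summed to 213.1-872.4 and 250.05-743.7 TPM, with 1 higher and 1 lower. The 6 stromal markers summed to 245.0-1102 and 290.8-907.3 TPM, with none higher and 1 lower. The 7 epithelial markers had none higher and 1 lower. Summed podocyte markers were 12.2-88.5 and 21.2-96.2 TPM, and 4 immune markers 4.64-8.84 and 4.49-41.4 TPM. Proximal tubule markers summed to 3.95-8.71 and 10.4-12.8 TPM, nearly all of it *Slc5a2* (3.75-8.37 and 9.23-12.2 TPM), with none of 4 tested higher or lower at an unadjusted edgeR p of 0.05. *Lrp2*, *Cubn* and *Slc34a1* were at most 0.216 TPM in any culture. Principal cell markers summed to 7.74-32.7 and 12.7-91.5 TPM with the highest value in GDNF culture 6. That sum was mainly *Fxyd4* (4.95-21.6 and 8.59-69.3 TPM), while *Aqp2* was at most 0.356 TPM and *Elf5* at most 0.264 TPM in any culture. Intercalated cell markers summed to 4.20-11.3 and 3.32-7.62 TPM, mainly *Atp6v0d2* (4.11-9.75 and 3.08-7.10 TPM). *Foxi1* was at most 0.334 TPM in any culture. GDNF culture 6, which had the highest sum of principal cell markers, mainly *Fxyd4*, also had the highest *Dll1*, *Hey1* and *Hes1* levels in TPM and the lowest *Jag2*. The part of cell makeup in the members' levels was not tested.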

How the data were processed

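RNA-Seq of 8 tubuloid cultures was read from the authors' tables, 1 per culture. The libraries came from the SMART-Seq v4 kit. The submitters' processing notes name STAR, featureCounts and DESeq2 with mm10 (GRCm38). Their versions, and whether strand was used, are not given in the sources used here. The authors deposited raw counts for each RefSeq transcript. The authors' FPKM column, scaled to length and library total, served only to obtain lengths. The authors' TPM column sums to an equal total in each culture over all transcripts.

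Per-symbol sums of counts entered the quasi-likelihood test of edgeR 4.0.16 (R 4.3.3) after filterByExpr and TMM, with p-values adjusted by Benjamini-Hochberg over the 16557 genes kept and called at 0.05. The standard error was the log2 fold change over the square root of F. For TPM, each gene's most counted transcript was compared by two-sided exact permutation tests over all 70 assignments. Correlations used log2(CPM + 1) with exact permutation over 40320 pairings. With group means removed the same pairings were used without regard to group, so those p-values are not exact and can be too small. Alternatives used DESeq2 1.42.0, limma 3.58.1, other scalings and filters, leaving out single cultures and, added after the data were seen, a spline (5 degrees of freedom) of length and GC content per culture as an offset. The scripts were tested on simulated data. Members and gene lists were chosen with earlier results of these data known. All members are named; of the other pathway genes, those named are the 2 with the smallest unadjusted p per role with a mean of at least 1 CPM, of which 1 is not reported here; the 2 genes most like each member come from those with a mean of at least 5 CPM. Promoter windows and gene positions are from RefSeq tables of GRCm38.p6; windows were found for 7 of the 10 members and not for *Hes1*, *Hey1* and *Heyl*.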

Additional observations from a re-analysis of the deposited data

Results flagged for a closer look

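In 4 of the 40 groups of 4 values tested (10 members, 2 groups, TPM and CPM), the highest or lowest culture lay far from the other 3 by Dixon's criterion, which chance meets in about 1 of 20 groups. *Notch2* in control culture 3 was 1.62 TPM, below the other controls, in the culture with the highest share of counts on short transcripts. *Hey1* in control culture 7 was 13.99 TPM, above the other controls. *Notch3* in control culture 7 was 10.3 CPM, also above the other controls. *Hey1* in GDNF culture 6 was 28.5 CPM, above the other GDNF cultures, in the culture that also had the highest *Dll1*.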

How the results depend on the processing

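No paired analysis was possible because the groups share no culture numbers. The count of members called was 0 with edgeR under each scaling and filter, with limma-voom and without any 1 culture (0 to 0), and 2 with DESeq2. For the pathway list these counts were 0 and 1 with DESeq2 (0 to 0 without single cultures). The members' median log2 change was 0.40 to 0.70 without single cultures and 0.19 with the length and GC trend removed. The count of members past the exact test in TPM was 2 to 6 without single cultures. It was 3 without control culture 3, 2 without control culture 14, 3 without control culture 21 and 6 without GDNF culture 6. Without each of these 3 control cultures, 6 members were still higher in every GDNF culture than in every control in TPM, which leaving out a culture cannot undo. The shares of all genes in these smaller sets were not counted for either measure. With all cultures, 23.4% of 13698 genes were higher in this way. Separated neighbours in the order of control levels were 3 to 4 without single controls. Pairs passing after adjustment were 9 in log2(TPM + 1), 3 with group means removed (by permutation p-values that are not exact) and 0 to 3 without single cultures. The log2 change of *Dll4* (-0.33 to 0.096 without single cultures) turned to 0.055 with limma-voom, 0.15 with library size only and 0.096 without control culture 3, and its TPM difference to -1.09 in CPM. With the length and GC trend removed, *Notch3* turned to -0.0073, *Notch4* to -0.014 and *Dlk1* to -0.058. *Dlk1* (-0.11 to 0.62 without single cultures) was also -0.24 with limma-voom, -0.013 without control culture 21 and -0.11 without GDNF culture 6, and *Hes5* (up to 1.34 without single cultures) -0.013 with limma-voom and -0.42 without GDNF culture 6. The *Hes1* difference was -19.6 in CPM, and in TPM -1.57 without control culture 14 and -3.82 without GDNF culture 6 (up to 10.7 without others). The difference in the *Notch3* to *Notch1* ratio turned to 0.013 to 0.029 without control cultures 3 or 7 or GDNF cultures 6 or 17 (0.020 and 0.016; -0.052 at the lowest), that in *Jag1* to *Jag2* to -3.74 without GDNF culture 6 (up to 37.7 without others), and that in the *Jag1* share to -0.23 without control culture 14 and -0.77 without GDNF culture 12 (up to 5.69 percentage points without others). The difference in the *Jag2* share of ligand TPM was -0.39 to 0.099 percentage points without single cultures and above 0 only without GDNF culture 6. The cause of these changes was not tested.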
